A study of Saccharomyces cerevisiae BY4741 with 6 samples.

Results

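The strain lacking SPP1 was compared with the wild type in glucose medium, gene by gene, on nascent RNA. All genes with a mean count of at least 10 over the 6 libraries of the series were taken, which gave 5186 of 5219 genes in the table. At that limit the lowest genes kept were PAU5 (mean count 10.7) and YPS6 (10.8), and the highest genes left out were MIC60 (9.83) and TOA2 (9.5). The 2 strains were Saccharomyces cerevisiae BY4741, haploid budding yeast, and both carried a 3xFLAG tag on Rpb3, a subunit of RNA polymerase II, marked with a His cassette. The deletion strain also had SPP1 replaced by a kanamycin resistance cassette. Cells of both were grown in rich medium with glucose to mid-log phase at 30 °C and filtered, and RNA held by the tagged polymerase was purified and sequenced (NET-seq, native elongating transcript sequencing). The remaining 4 libraries came from the same strains at 15 and 60 min after cells had been spun down and moved to galactose medium. Each strain and condition had 1 library, and the labels do not say how many isolates of the deletion were used. The glucose comparison therefore has no replicate error and no p-value.

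The wild-type glucose library held 2528759 counts and the deletion library 4167249. After scaling by trimmed mean of M-values (TMM), the deletion library was 1.59 times the size of the wild-type library. A log2 difference below is the deletion minus the wild type, taken on CPM, counts scaled to the size of the library, with a prior count of 2. The interval after it is an exact 95% (Clopper-Pearson) interval on the pair of counts, which covers counting error only. Intervals, and the fold values printed for SPP1, TIR1, TIR3 and PHO89, use no prior count, while the 2-fold rule does. Of all genes, 17.6% had such an interval above 0 and 15.7% below 0, so that an interval clear of 0 was common in these libraries. By sign alone, 51.6% of genes were above 0 and 48.4% below 0. Reads made by PCR without molecular identifiers are not independent molecules, which these intervals do not allow for. A gene was counted as higher or lower at 2-fold, which 1.21% of genes reached. Counts are uncertain for 147 genes on chromosome XI that lie between MTC2 and the end of the right arm. Their W-strand genes had a lower median level than their C-strand genes, by a log2 difference (W minus C) of -1.51 in the wild type and -1.58 in the deletion. Of the genes tested that are named below, YSR3, MRS4 and LAC1 lie there, as does MDH1. Whether one gene's reads were also counted for its paralogs or for overlapping genes is not given in the sources used here.

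Spp1 is a subunit of COMPASS, the complex around the methyltransferase Set1 that methylates histone H3 on lysine 4. Its PHD finger binds the methylated lysine, and the subunit is needed for full trimethylation near the start of genes. Sterols of yeast are made from acetyl-CoA through mevalonate and squalene to ergosterol, and most genes of the late steps are activated by the related factors Upc2 and Ecm22 when sterol is scarce.

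SPP1 itself checked the labels. It had 324 counts in the wild type and 1 in the deletion, a level 515-fold higher in the wild type (exact 95% counting interval 91.8 to 20404). With the prior count of 2 its log2 difference was -6.70. The other COMPASS genes lay close to equal. BRE2 went from 133 counts to 278 (0.39, interval 0.09 to 0.70), and it was the one COMPASS gene with an interval above 0. SET1, the methyltransferase gene, had 256 and 356 counts (log2 -0.19, interval -0.43 to 0.04), and SWD1 (log2 -0.18), SWD3 (log2 -0.08), SHG1 (0.05) and SDC1 (0.09) had intervals across 0. SWD2 was not analysed here. Of 22 genes for other enzymes and cofactors of histone methylation, H2B ubiquitination and deacetylation, 0 differed by 2-fold (1.21% of all genes did). Their median was 0.0417.

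The genes next to SPP1 were lower in the deletion. UME1, which lies beside the 3′ side of SPP1 on the same strand, had 176 counts in the wild type and 162 in the deletion (log2 -0.77, interval -1.11 to -0.47). Next on that side, MKK2, a kinase gene of the cell wall integrity pathway, had 174 and 199 (log2 -0.47, interval -0.78 to -0.17). FRK1 beyond it had 272 and 269 (log2 -0.68, interval -0.93 to -0.44). GIP3 on the 5′ side differed less (log2 -0.21, interval -0.41 to -0.02), and ISU1 and ODC1 further along lay at 0.01 and 0.02. Beyond them COX11 (log2 -0.28, interval -0.51 to -0.04), TAF14 (log2 -0.22, interval -0.38 to -0.06) and RPL5 (log2 -0.08) had intervals below 0. On the other side, NOP53 (log2 -0.21) had an interval below 0 and POC4 (0.25, interval 0.09 to 0.41) above 0. Differences of the size of GIP3's were thus not confined to the nearest genes. All 3 measured genes that reach within 5 kb of SPP1 had an interval below 0, against 15.7% of all genes. None of these neighbours reached 2-fold or passed edgeR's test in galactose.

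**Figure D1:**
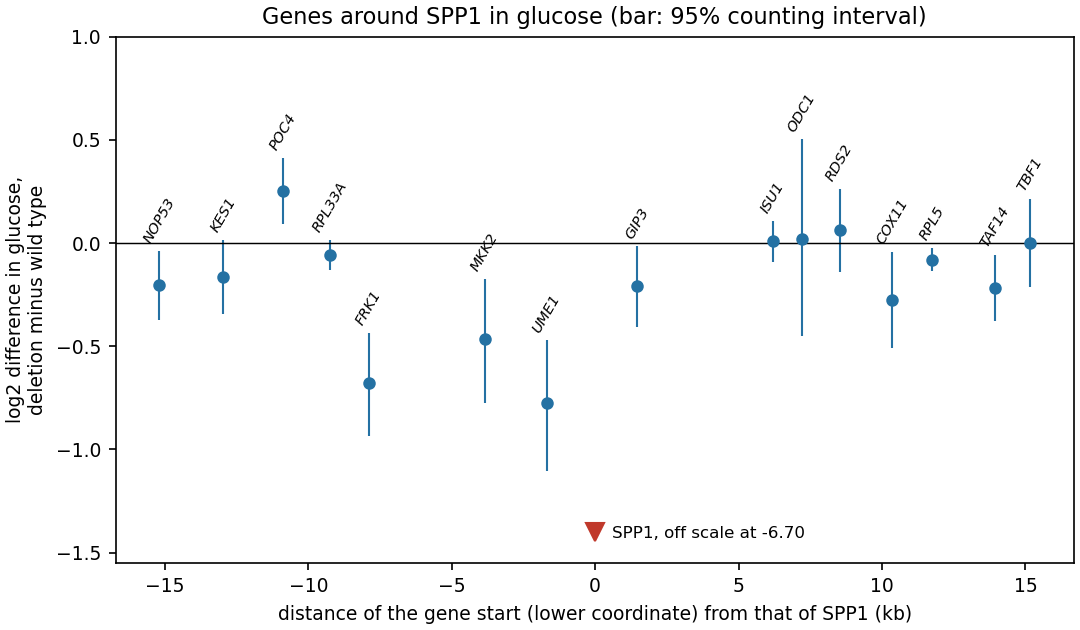
Log2 difference in glucose (deletion minus wild type) of genes around SPP1, placed by the distance of each gene's lower coordinate from that of SPP1 in kb; points are genes, bars are exact 95% counting intervals, and SPP1 lies off the scale at -6.70. FRK1, MKK2 and UME1, on the left of SPP1, have intervals wholly below 0, as do NOP53, GIP3, COX11, RPL5 and TAF14. The interval of POC4 lies wholly above 0.

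In glucose, 44 genes (0.848% of those tested) were at least 2-fold higher in the deletion and 19 (0.366%), SPP1 included, at least 2-fold lower. With the libraries scaled by their totals alone the split was 37 higher and 26 lower. The middle of the distribution was narrow, with quartiles at -0.14 and 0.15. The 44 higher genes had a median of 153 wild-type counts, against 286 for all genes, and ran from 2 to 1773. Of them 22 came from the 1038 genes with 151 or fewer wild-type counts, where 7 genes were lower, and 13 from the 1037 genes with 561 or more, where 3 were lower. For 33 genes, 25 higher and 8 lower, the whole counting interval lay past 2-fold. SIP4, at 2 and 11 counts, and YLR437C-A, at 4 and 18, passed 2-fold with intervals that reached below 0. No chromosome was shifted as a whole: medians per chromosome ran from -0.0258 on XI to 0.0328 on III. Chromosome VII, with 465 of the genes tested, held 12 of the higher genes and 0 of the lower. The higher genes were split evenly between strands, 22 on each, and 6 of the lower genes were on the W strand and 13 on the C strand.

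**Figure D2:**
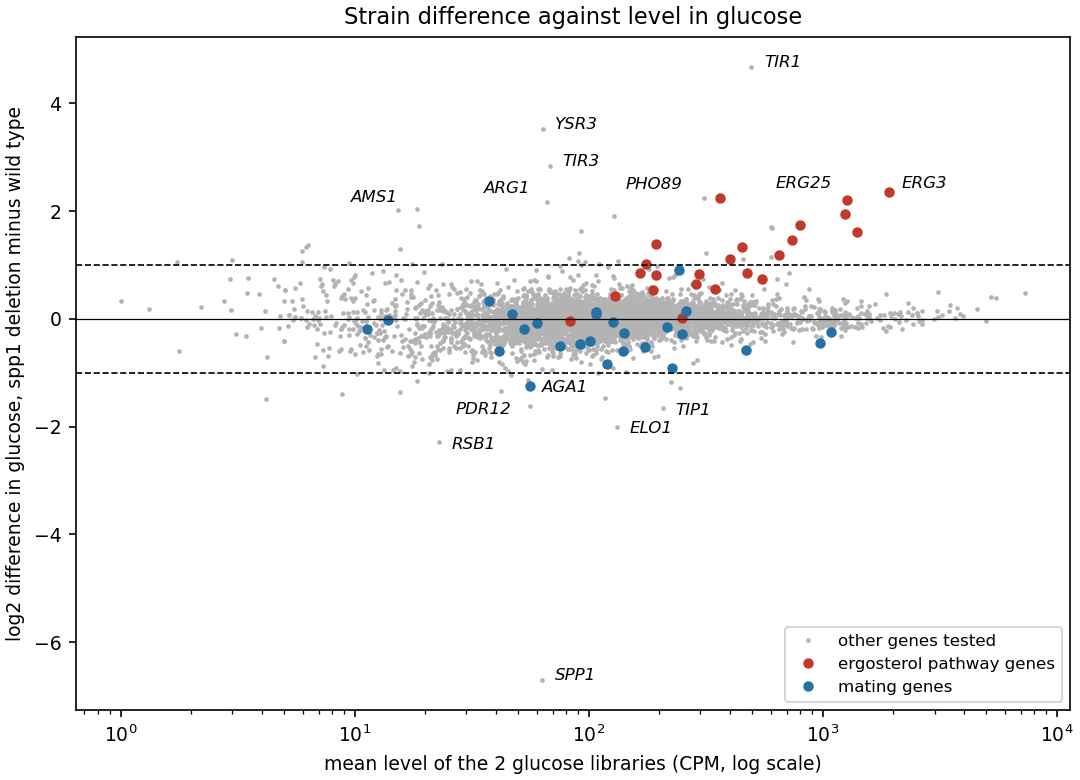
Log2 difference in glucose (deletion minus wild type) against the mean level of the 2 glucose libraries in CPM on a log axis; each point is 1 of 5186 genes, ergosterol pathway genes are red, mating genes blue, and dashed lines mark 2-fold. Most genes lie near 0, ergosterol genes lie mainly above it, and TIR1 (4.67) and SPP1 (-6.70) are the farthest points.

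Genes of ergosterol synthesis made up the largest named group among the higher genes. Of 39 measured genes of the mevalonate part, the steps from squalene on, and the regulators and partners of the pathway, 17 were at least 2-fold higher and 0 lower. They were 38.6% of the 44 higher genes, while the 3 lists together hold 0.752% of all genes tested. These lists were chosen with earlier results of these data known, so the count describes the group and tests nothing.

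From squalene on, all 15 measured genes had a counting interval above 0 (17.6% of all genes did) and 12 were at least 2-fold higher (0.848%). The 15 had a median of 1.39 and a range from 0.64 to 2.35. The median of all genes was 0.00807. Their summed level went from 4850 CPM in the wild type to 15842 in the deletion. ERG9, squalene synthase, stood at 544 and 1537 counts (0.83, interval 0.69 to 0.97). ERG1, the squalene epoxidase gene (YGR175C, chromosome VII, 846933 to 848423), went from 511 to 1983 CPM, or 1311 to 8089 counts (1.95, interval 1.87 to 2.04). ERG7, which makes lanosterol, was at 0.86 and ERG11, the lanosterol demethylase and target of azole drugs, at 1.61 (1773 and 8602 counts). The sterol C-14 reductase gene ERG24 had 649 and 2229 counts (1.11, interval 0.98 to 1.24).

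The genes of C-4 demethylation lay far apart. ERG25, the oxidase (YGR060W, chromosome VII, 610564 to 611493), had 1158 and 8463 counts (2.20, interval 2.11 to 2.29). ERG28, the scaffold that holds these enzymes together (YER044C, chromosome V, 237570 to 238016), had 327 and 2459 (2.23, interval 2.08 to 2.41). ERG26, the decarboxylase, was at 1.39 and ERG29 at 1.03. ERG27, the keto reductase, was the lowest of the 15, with 576 and 1433 counts (0.64, interval 0.51 to 0.79). The intervals of ERG27, ERG26 and ERG25 did not overlap each other, while that of ERG28 overlapped that of ERG25. These intervals cover counting error only, so whether the genes differ from each other was not tested.

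The last steps were also higher. ERG3, the C-5 desaturase gene (YLR056W, chromosome XII, 253861 to 254958), was the highest of the list, at 626 CPM in the wild type and 3198 in the deletion (2.35, interval 2.28 to 2.43). In galactose it had 67 counts in the wild type and 1179 in the deletion at 15 min, and 660 and 1407 at 60 min, so the deletion was higher in every pair. ERG2, the isomerase, had 947 and 5038 counts (1.74), and the methyltransferase gene ERG6 had 1006 and 4432 (1.47). ERG4, the final reductase, was at 1.34 and the desaturase gene ERG5 at 1.18.

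The mevalonate part was higher by less, and not in all members. Of 8 measured genes 6 had an interval above 0 (17.6% of all genes did) and 0 reached 2-fold (1.21%), with a median of 0.541. ERG8, phosphomevalonate kinase, had 868 and 2485 counts (0.85, interval 0.74 to 0.96). The decarboxylase gene MVD1 was at 0.82 and the thiolase gene ERG10 at 0.73. ERG20 (0.55), HMG1 (0.53) and ERG12 (0.43) followed. The isomerase gene IDI1, with 635 and 1022 counts (0.02, interval -0.13 to 0.16), and HMG2, with 217 and 334 (log2 -0.05, interval -0.30 to 0.21), had intervals across 0. HMG1 and HMG2 encode the paired isoforms of HMG-CoA reductase. Their intervals did not overlap, but these cover counting error only, and a difference between the genes was not tested.

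Among 16 measured regulators and partners, 5 were at least 2-fold higher (0.848% of all genes were) and the median was -0.0257. ATF2, an acetyltransferase that acts on sterols and alcohols, had 719 and 3749 counts (1.71, interval 1.60 to 1.83). CYB5, the cytochrome b5 that passes electrons to sterol desaturation, had 735 and 3774 (1.69, interval 1.58 to 1.81). YEH1, a steryl ester hydrolase gene, was at 1.23 and NCP1, the reductase that serves Erg11, at 1.12. The regulator UPC2 went from 148 to 498 counts (1.07, interval 0.81 to 1.36), while its paralog ECM22 had 100 and 141 (log2 -0.17, interval -0.55 to 0.21). DAP1, a partner of Erg11, was at 0.80 and the sterol acyltransferase gene ARE1 at 0.82, with its paralog ARE2 at -0.09. The repressor gene ROX1 was lower (367 and 453 counts, log2 -0.36, interval -0.57 to -0.16).

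The same differences were then read in the 4 galactose libraries, which the glucose comparison does not use, with edgeR's quasi-likelihood test for a strain difference shared by 15 and 60 min. Of the 15 genes from squalene on, 10 rose there, against 0.791% of all genes called higher. ERG25 rose by 2.13 ± 0.20 (Benjamini-Hochberg adjusted p = 3.08e-06) and ERG24 by 0.98 ± 0.14 (adjusted p = 6.10e-04, same edgeR test). Each ± gives a stand-in for a standard error, the size of the log2 difference over the root of its F statistic. ERG1 (0.75 ± 0.19, adjusted p = 0.0521), ERG26 (0.63, adjusted p = 0.0516) and ERG9 (0.68, adjusted p = 0.0516) missed the threshold, as did ERG27 (0.15) and ERG29 (0.32). Of the mevalonate genes MVD1 rose (0.76 ± 0.18, edgeR adjusted p = 0.0426), while ERG8, at 0.85 in glucose, was at 0.07 and 0.03 at the galactose times. ATF2, CYB5, NCP1 and DAP1 rose, and UPC2 did not pass (1.09 ± 0.28, edgeR adjusted p = 0.0704). DESeq2 did not call ERG3, ERG4, ERG5, ERG7, ERG11, MVD1 or DAP1 among these, and limma did not call ERG5, ERG7 or MVD1. SPP1 itself was not called by DESeq2 in these libraries.

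**Figure D3:**
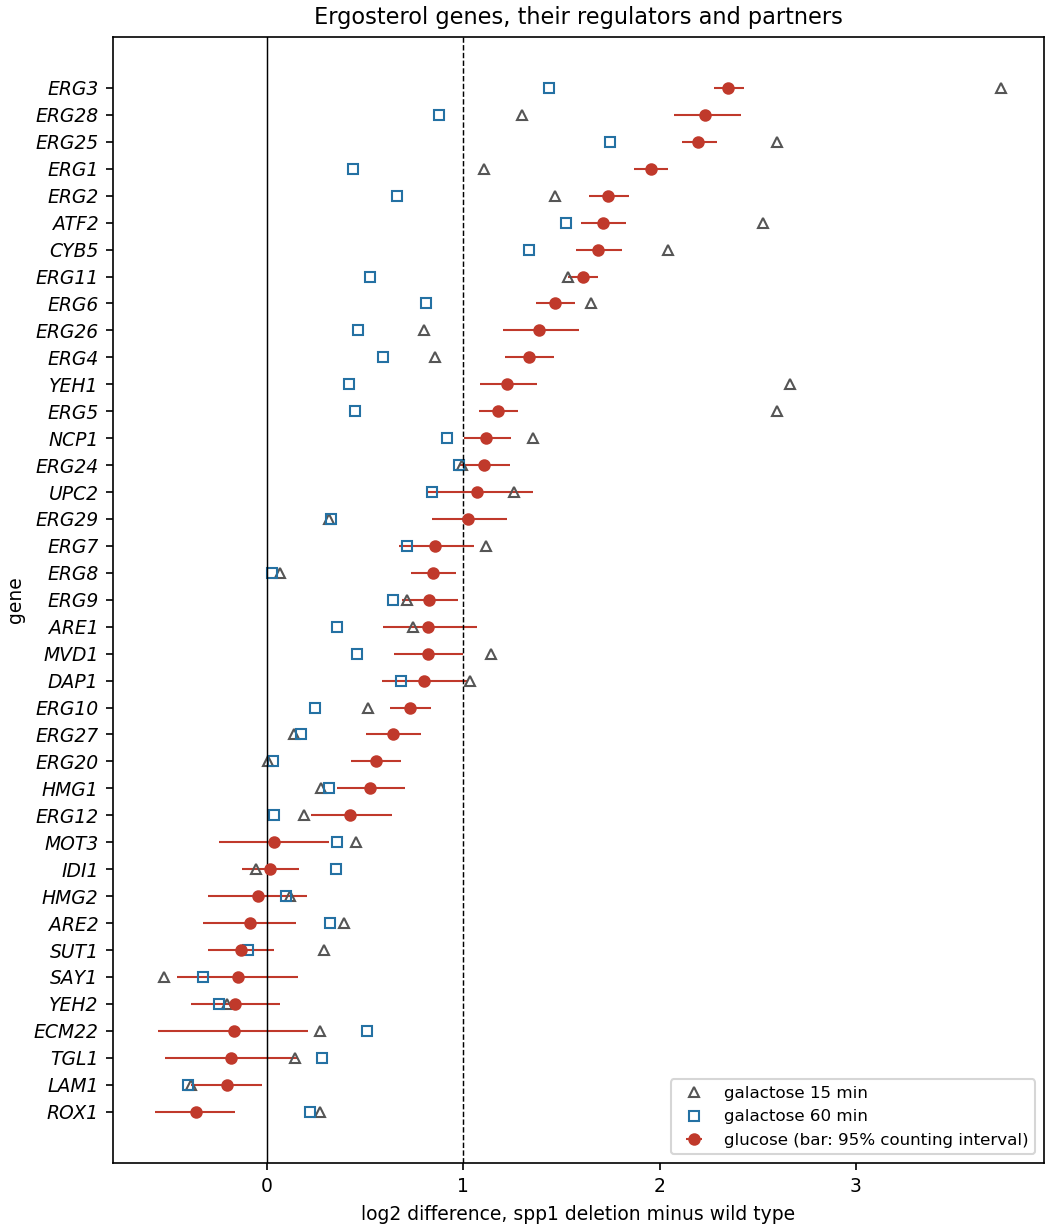
Log2 difference (deletion minus wild type) of 39 genes of ergosterol synthesis, its regulators and partners, sorted by the glucose value; red points with bars are glucose with its exact 95% counting interval, triangles are galactose at 15 min and squares galactose at 60 min. The glucose values run from 2.35 for ERG3 to -0.36 for ROX1, and ERG3, YEH1 and ERG5 are farthest to the right at 15 min.

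The largest difference in glucose after SPP1 was that of TIR1, a cell-wall mannoprotein gene (YER011W, chromosome V, 175248 to 176012) known from cold and oxygen-poor growth. It had 94 counts in the wild type and 3892 in the deletion, which is 36.6 and 954 CPM, a level 26.0-fold higher in the deletion (interval 21.2 to 32.3). TIR3 (YIL011W, chromosome IX, 333727 to 334536) went from 41 to 493 counts, 7.56-fold (interval 5.50 to 10.7). TIR2 (35 and 105 counts, 0.87, interval 0.35 to 1.51) and TIR4 (26 and 68, 0.67, interval 0.05 to 1.43) were higher by less. HPF1, another wall mannoprotein gene, had 29 and 97 counts (1.01). TIP1, of the same family, ran the other way, from 807 to 403 counts (log2 -1.66, interval -1.85 to -1.50). NRG2, which encodes a glucose-dependent repressor and lies 1404 bases from TIP1, was higher (186 and 606 counts, 1.03). In all, 3 of 18 measured wall mannoprotein genes were at least 2-fold higher (0.848% of all genes were) and 1 lower (0.366%). The list's median was 0.0591. PAU5, which was lower on few counts (17 and 7, log2 -1.50), was not on this list. In galactose TIR1 rose by 4.63 ± 0.25 (edgeR adjusted p = 9.70e-10), TIR3 did not pass (1.27 ± 0.31, adjusted p = 0.0521), and TIP1 fell by 0.66 ± 0.16 (adjusted p = 0.0490, same edgeR test). TIR1 also passed DESeq2 and limma, and TIP1 passed neither.

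Genes known from low oxygen or heme lay on both sides of 0. Of 14 measured, 3 had an interval above 0 (17.6% of all genes did) and 5 below 0 (15.7%), with a median of -0.0782. HEM13, the oxygen-dependent heme synthesis gene, had 210 and 653 counts (0.96, interval 0.74 to 1.20), and HEM14 was at 0.78. ANB1 and AAC3, which are known to be induced by lack of oxygen, lay at 0.14 and -0.06. OLE1, the fatty acid desaturase gene, was lower (1665 and 1980 counts, log2 -0.42), and CYC1, iso-1-cytochrome c, went from 378 to 296 counts (log2 -1.01, interval -1.25 to -0.80). DAN1 and DAN4 were not analysed here.

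Arginine genes were higher at the end of their pathway. ARG1, argininosuccinate synthetase (YOL058W, chromosome XV, 219211 to 220473), had 60 counts in the wild type and 444 in the deletion (2.17, interval 1.83 to 2.63). ARG4, the lyase of the next step, had 220 and 740 (1.07, interval 0.86 to 1.31), and ARG3, the carbamoyltransferase of the step before, had 15 and 53 (1.03, interval 0.30 to 2.09). CAR2, which breaks down ornithine made from arginine, was lower (148 and 123 counts, log2 -0.91, interval -1.29 to -0.58). Of 16 measured arginine genes, 3 were at least 2-fold higher (0.848% of all genes were), 0 lower (0.366%), and the median was 0.176. GCN4, the activator of amino acid synthesis, was at -0.30. Other amino acid lists stayed under 2-fold, which 1.21% of all genes reached. Medians were 0.285 for 7 histidine genes, 0.135 for 15 aromatic, 0.0369 for 9 lysine and 0.0662 for 11 branched-chain genes. In galactose ARG1 (0.41 at 15 min, 0.71 at 60 min), ARG4 (0.01 and 0.29) and ARG3 (0.64 and -0.30) did not pass edgeR's test. CPA1, the small subunit gene of carbamoyl phosphate synthetase, at 0.20 in glucose, rose there by 0.74 ± 0.17 (edgeR adjusted p = 0.0351), though not by DESeq2 (1.00) or limma (0.0675).

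PHO89, a sodium-coupled phosphate transporter gene (YBR296C, chromosome II, 796798 to 798522), stood apart from the rest of its list. It had 276 counts in the wild type and 2104 in the deletion, 4.80-fold (interval 4.23 to 5.46). The other 20 measured phosphate genes were all under 2-fold, and 11 of the 21 had an interval above 0 (17.6% of all genes did). PHM8 (0.59), SPL2 (0.48) and PHO84, the high-affinity phosphate transporter gene (4038 and 8810 counts, 0.46, interval 0.40 to 0.51), were next. PHO89 was at 1.00 at 15 min and 0.07 at 60 min in galactose.

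Some genes of iron uptake were higher. TIS11, whose product degrades mRNAs of iron-using proteins, had 138 and 518 counts (1.22, interval 0.97 to 1.52), and the siderophore transporter gene SIT1 had 158 and 508 (1.00, interval 0.76 to 1.28). FIT2, a wall protein that retains siderophores, was at 0.99, the iron permease gene FTR1 at 0.75 and ARN2 at 0.66. FET3, the oxidase that works with Ftr1, was at 0.39 in glucose and fell in galactose by 0.69 ± 0.16 (edgeR adjusted p = 0.0470), which limma also called and DESeq2 did not. FRE3 (log2 -0.62) and the mitochondrial carrier gene MRS4 (log2 -0.71), whose count on chromosome XI is uncertain, were lower. Of 28 iron genes 2 reached 2-fold (1.21% of all genes did), and the median was 0.0991. The interval lay above 0 for 12 (17.6% of all genes) and below 0 for 5 (15.7%).

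Several strongly higher genes were on none of the lists above. YSR3, a phosphatase gene for sphingoid base phosphates, had 24 and 481 counts (3.52, interval 3.07 to 4.31), but it is among the genes of uncertain count on chromosome XI. AMS1, the vacuolar mannosidase gene, had 17 and 124 (2.04, interval 1.46 to 3.02), and CSS1 had 14 and 102 (2.01, interval 1.38 to 3.12). SCM4, which encodes a protein of the mitochondrial outer membrane, had 138 and 831 (1.90, interval 1.66 to 2.19), and it passed edgeR's test in galactose (0.86 ± 0.18, adjusted p = 0.0280) but not DESeq2 (adjusted p = 1.00) or limma (0.0617). TMA10, a stress-induced gene, had 21 and 120 counts (1.73, interval 1.17 to 2.59), and FHN1, of the eisosome family, had 114 and 573 (1.64, interval 1.37 to 1.96).

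RSB1, a transporter-like gene for sphingoid bases (YOR049C, chromosome XV, 422668 to 423732), had the lowest value after SPP1, with 99 counts in the wild type and 29 in the deletion (log2 -2.29, interval -3.09 to -1.83). ELO1, which lengthens medium-chain fatty acids (YJL196C, chromosome X, 67850 to 68782), had 545 and 213 (log2 -2.00, interval -2.26 to -1.79), and fell in galactose by 1.23 ± 0.21 (edgeR adjusted p = 2.95e-03), a call that DESeq2 and limma also made. ELO2 and ELO3, for very long chains, were at -0.23 and -0.20 in glucose. FAS2, a fatty acid synthase subunit gene, was higher at 0.64. The rest of the 20 sphingolipid genes were under 2-fold, with CSH1 at -0.64, KEI1 at -0.54 and LAC1, a ceramide synthase gene, at -0.45, and the ceramidase gene YDC1 at 0.71.

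PDR12, a weak-acid exporter gene, went from 219 to 111 counts (log2 -1.61, interval -1.99 to -1.31). It and RSB1 were the only members past 2-fold in a list of 12 pleiotropic drug resistance genes, which holds exporters, the regulators PDR1 and PDR3 and the lipid transfer genes PDR16 and PDR17. Of these 12, 5 had an interval below 0 (15.7% of all genes did) and 0 above 0 (17.6%), and the median was -0.159. Mitochondrial genes among the lowest were COA2, an assembly factor of cytochrome oxidase (444 and 251 counts, log2 -1.48), and NDE1, the external NADH dehydrogenase gene (897 and 584, log2 -1.28, interval -1.44 to -1.14). GAT2, a GATA-type zinc finger gene, had 156 and 96 (log2 -1.33), the riboflavin transporter gene MCH5 195 and 139 (log2 -1.13), and the trehalose synthase subunit gene TSL1 66 and 45 (log2 -1.15). PAU5 (17 and 7 counts, log2 -1.50), YER053C-A (34 and 18, log2 -1.40) and YBL086C (161 and 123, log2 -1.03) were also lower, the first on few counts.

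Several genes of the mating pathway were lower. All 4 measured genes specific to a cells had an interval below 0 (15.7% of all genes did), with a median of -0.519, and their summed level was 3011 CPM in the wild type and 2273 in the deletion. AGA2, the binding subunit of a-agglutinin, had 394 and 347 counts (log2 -0.84, interval -1.06 to -0.64), the a-factor genes MFA1 and MFA2 were at -0.58 and -0.46, and the alpha-factor receptor gene STE2 at -0.24. Among 22 measured mating response genes 11 had an interval below 0 and 1 above 0, with a median of -0.187. AGA1, the anchor of a-agglutinin, had 203 and 134 counts (log2 -1.24, interval -1.59 to -0.95). SST2, which damps the pheromone signal, had 764 and 641 (log2 -0.92, interval -1.08 to -0.77), and the transcription factor gene TEC1 431 and 453 (log2 -0.59). Of the 22, 6 were above 0, and PRM4 had the interval above 0 (432 and 1286 counts, 0.90, interval 0.75 to 1.07). In galactose AGA1 fell by 1.43 ± 0.27 (edgeR adjusted p = 0.0108), SST2 by 1.47 ± 0.19 (adjusted p = 2.21e-04), MFA1 by 0.80 ± 0.18 (adjusted p = 0.0387) and TEC1 by 0.74 ± 0.16 (adjusted p = 0.0280, same edgeR test). AGA2 (log2 -0.50, edgeR adjusted p = 0.205), MFA2 (log2 -0.51, 0.310) and STE2 (log2 -0.62, 0.0815) did not pass, and neither did the other mating response genes. SST2 also passed DESeq2 and limma. AGA1 and TEC1 passed limma but not DESeq2 (adjusted p = 0.599 and 0.619), and MFA1 passed neither (DESeq2 0.711, limma 0.0777). Both measured genes specific to alpha cells were low and lower still in the deletion: AFB1 had 59 and 34 counts (log2 -1.36) and SAG1 54 and 52 (log2 -0.68), with a summed level of 44.0 and 21.1 CPM. STE3, also specific to alpha cells, went the other way, with 3 and 22 counts in glucose (1.57), but was below the limit on mean counts.

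Cell cycle genes lay slightly below 0. Of all genes tested, 15.7% had a counting interval below 0 and 17.6% above 0. Of 19 G1/S genes 10 had an interval below 0 and 1 above 0 (median -0.169), led by the cyclin genes CLN2 (628 and 617 counts, log2 -0.69) and CLN1 (log2 -0.61). Of 27 genes of mitosis, early G1 and replication licensing 15 had an interval below 0 and 1 above 0 (median -0.215), with the licensing gene CDC6 at 491 and 391 counts (log2 -0.99, interval -1.19 to -0.80). In these lists 0 genes reached 2-fold (1.21% of all genes did) or passed edgeR's test in galactose (1.2%). In that test 594 of all genes had an unadjusted p under 0.05. The part of cell cycle stage in the mating and sterol differences was not tested.

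The large growth lists had medians near 0. The 136 ribosomal protein genes had a median of -0.0245 and a range from -0.34 to 0.36, and the 75 ribosome biogenesis genes a median of 0.00942 with a range from -0.26 to 0.35. RNA polymerase II genes (12, median 0.0638), histone genes (10, median -0.0383), proteasome genes (33, median 0.108) and respiratory chain genes (34, median -0.0224) held 1 gene past 2-fold among them, CYC1. Of all genes, 1.21% were past 2-fold. Intervals lay above 0 for 14 proteasome genes and below 0 for 1, against 17.6% and 15.7% of all genes. For ribosome biogenesis these counts were 21 above and 4 below, and for the respiratory chain 1 and 9. Ribosomal protein genes had 37 and 44, RNA polymerase II genes 1 and 2, and histone genes 2 and 3. Of 9 zinc genes 6 had an interval below 0 (15.7% of all genes did), with ZRT1, the high-affinity zinc transporter gene, at -0.72. Of 9 hexose transport and sensing genes 0 reached 2-fold (1.21% of all genes did). HXT2 (318 and 966 counts, 0.93) and HXT3 (1312 and 3779, 0.86) were highest. HXT3 rose in galactose (0.81 ± 0.19, edgeR adjusted p = 0.0467), which limma also called and DESeq2 did not. The galactose genes GAL1 (25 and 23 counts), GAL7 (27 and 34) and GAL2 (5 and 10) were low in both strains, with intervals across 0.

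**Figure D4:**
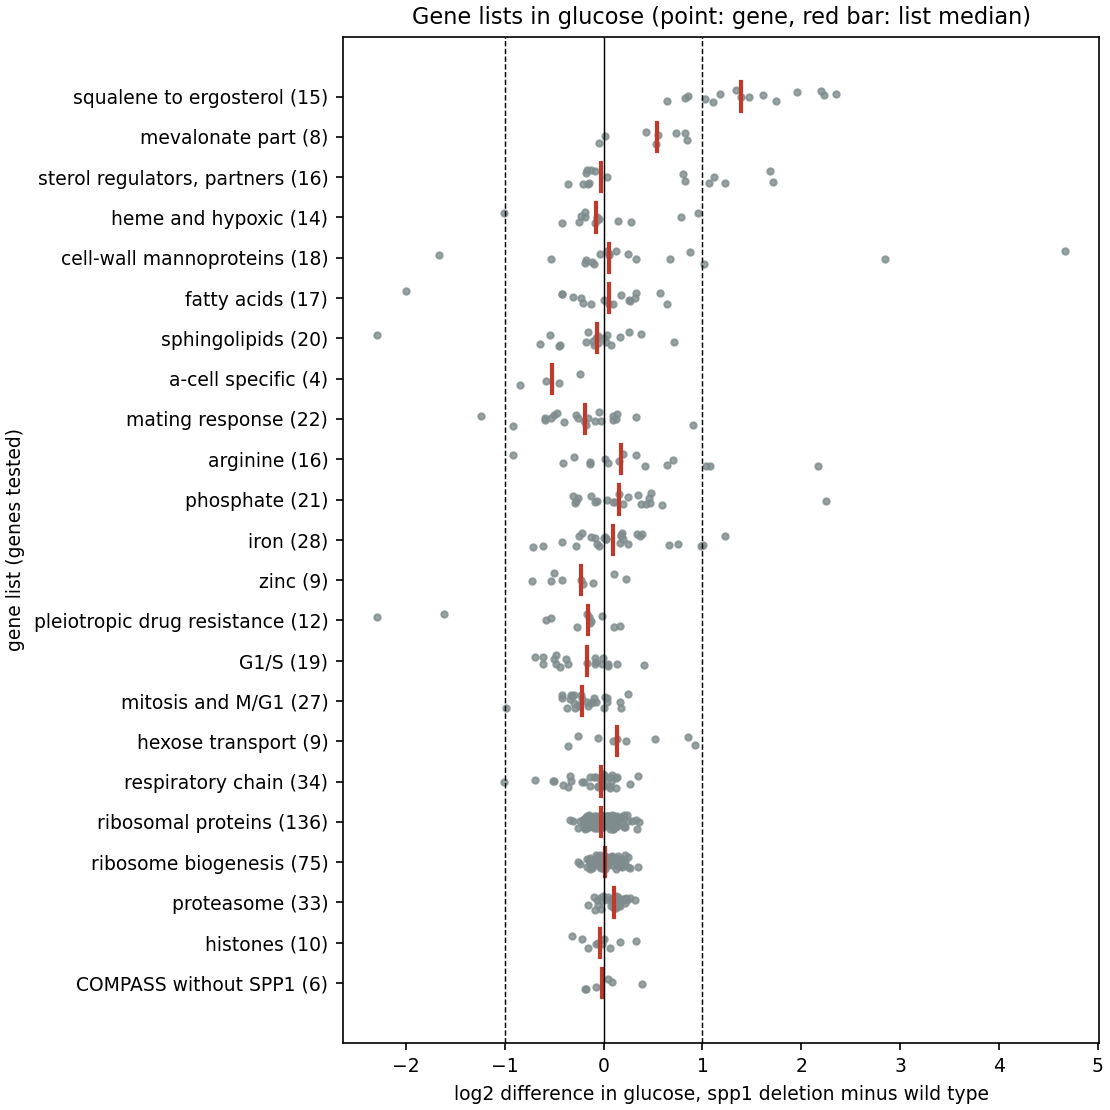
Log2 difference in glucose (deletion minus wild type) of the members of 23 gene lists, 1 row a list with the number of genes tested in brackets; grey points are genes, red bars are list medians and dashed lines mark 2-fold. The list from squalene to ergosterol has its median at 1.39, and ribosomal protein genes are gathered around -0.0245.

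The genes past 2-fold in glucose were read in galactose as 2 groups, the higher and the lower. Of the 44 higher genes, 39 were above 0 at both galactose times (28.2% of all genes were), 9 were at least 2-fold higher at both, and 17 rose in edgeR's test on the 4 galactose libraries, where 0.791% of all genes did. In glucose the median of the 44 was 1.33, and in galactose it was 0.875 at 15 min and 0.657 at 60 min. These genes were picked by their glucose values, from 1 library a strain, so the selection itself raises the glucose median. The lower galactose medians therefore cannot show whether the difference was weaker there. Of the 17 sterol genes among the 44, all 17 were above 0 at both times and 12 rose. Of the other 27, 22 were above 0 at both times and 5 rose. Of the 18 lower genes other than SPP1, 9 were below 0 at both times (28.4% of all genes were) and 4 fell (0.405% of all genes did): ELO1, AGA1, TIP1 and YER053C-A. The medians of the 18 were -1.31, -0.47 and -0.11 in the same order, with the same limit from the selection on glucose values. This test has 1 residual degree of freedom, which is how far a gene's strain difference changed between 15 and 60 min. edgeR pools that error across genes, with 17.5 degrees of freedom taken from all genes. The labels do not say that libraries of a strain came from separate cultures or isolates, so the test is no check across isolates. DESeq2 called 10 of the 44 and 1 of the 18 on the same libraries, and limma 13 and 2.

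Whether the strain difference in glucose departed from that in galactose was tested on all 6 libraries, with 1 residual degree of freedom. The glucose pair has no replicate, so each p-value sets an unreplicated difference against the change of the strain difference between the galactose times. That error is pooled across genes. In edgeR 9 genes (0.174%) passed, 4 with a higher value in glucose (0.0771%) and 5 with a lower one (0.0964%). YSR3, PHO89, AMS1 and TIS11 were higher in the deletion in glucose than in galactose, and RSB1, GAT2, COA2, BTN2 and LAF1 were lower. PHO89 departed by 1.74 ± 0.34 (adjusted p = 0.0375, same edgeR test) and RSB1 by -1.91 ± 0.39 (adjusted p = 0.0375). With DESeq2, limma, library totals as the scaling, or no filter on low counts, 0 genes passed, and 218 genes had an unadjusted p under 0.05 in edgeR, 25 in DESeq2 and 160 in limma. ARG1, ARG4 and PDR12 did not pass this test (edgeR adjusted p = 0.471, 0.235 and 0.0798).

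**Figure D5:**
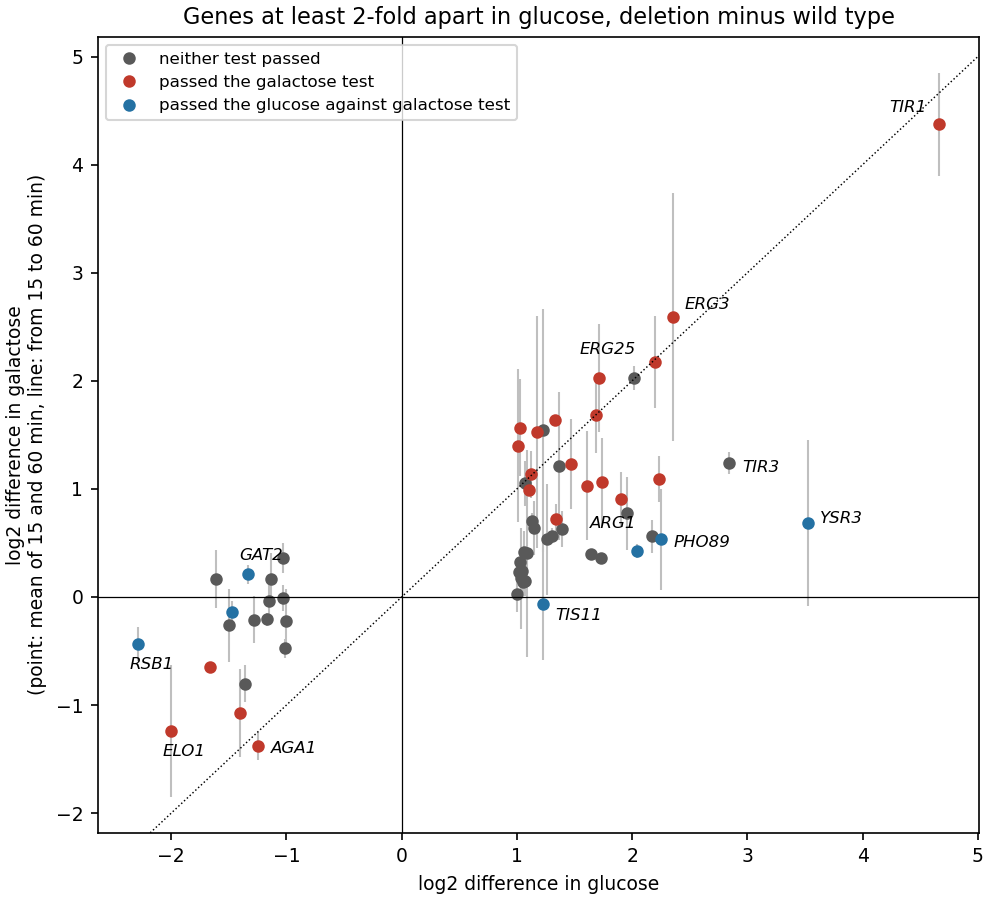
Log2 difference (deletion minus wild type) in glucose on the x axis and in galactose on the y axis for the 62 genes other than SPP1 that differed by at least 2-fold in glucose; points are the mean of 15 and 60 min, grey lines join the values of these times and the dotted line marks equal differences. Red genes passed the edgeR test in galactose and blue genes the test of glucose against galactose; TIR1 lies close to the dotted line and YSR3, PHO89 and RSB1 lie far from it.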

How the data were processed

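Reads were aligned with Bowtie to sacCer3, per the submitters' processing notes; the version, the counting tool, the strand setting and the gene windows were not stated (not given in the sources used here). The deposited table holds whole-number read counts per gene, 1 column a library, with no normalization seen in the values, and 3 of its lines were emptied. Of 5219 identifiers 5116 matched the RefSeq table (R64), which gave names and coordinates. Library totals ran from 1162190 to 4167249 counts. Members, lists and tests were chosen with earlier results of these data known.

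CPM used TMM scaling (edgeR 4.0.16, R 4.3.3). The glucose pair carries no test. The galactose difference (genotype and time, 4 libraries) and the glucose term (6 libraries) were fitted with edgeR's quasi-likelihood test over 5186 genes, Benjamini-Hochberg adjusted at 0.05; DESeq2 1.42.0 and limma 3.58.1 were alternatives. p-values measure the spread between times, not between cultures. On simulated counts of 5186 genes the galactose fit recovered 34% of 50 genes changed 1.5-fold and 94% of 50 changed 2-fold. It made 5 false calls. The glucose term recovered 34% at 2-fold and 88% at 3-fold, with 8 false calls. Changed genes were drawn only from those with a mean count of at least 50. Every simulated gene had the same dispersion, and a change in galactose had the same size at both times. These rates may therefore not hold for the real libraries.

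The naming rule took SPP1, COMPASS genes, genes that start within 5 kb of SPP1, the 15 highest and 15 lowest named genes with an interval beyond 1.5-fold, the 5 members of each list with the largest differences, and up to 5 genes each way that passed the glucose term. Other list members, FRK1, NOP53, POC4, ISU1, ODC1, COX11, TAF14, NRG2, FHN1 and STE3 were picked after their values were seen. So were the genes beside the count limit and genes without a standard name. Promoter motifs were planned and not analysed, since no sequences were used here. Figures used matplotlib 3.10.9 in Python 3.11.15. Some items are not reported here.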

Additional observations from a re-analysis of the deposited data

Results flagged for a closer look

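The strain difference in glucose departed from that in galactose in edgeR's test for 9 genes. Each is given as the glucose difference minus the galactose difference (log2, deletion minus wild type), with the values in glucose and at 15 and 60 min. All 9 had edgeR Benjamini-Hochberg adjusted p between 0.0298 and 0.0466, and with DESeq2, limma, library totals or no filter none passed. The glucose values come from 1 library a strain. The error in this test is the change of the strain difference between the galactose times, pooled across genes. YSR3 departed by 3.03 (3.52, -0.09 and 1.46), AMS1 by 1.76 (2.04, 0.49 and 0.36), PHO89 by 1.74 (2.25, 1.00 and 0.07) and TIS11 by 1.36 (1.22, -0.58 and 0.46). LAF1 departed by -1.26 (-0.95, 0.28 and 0.32), BTN2, a chaperone-type sorting gene, by -1.34 (-0.77, 0.77 and 0.06), COA2 by -1.35 (-1.48, -0.25 and -0.03), GAT2 by -1.60 (-1.33, 0.30 and 0.12) and RSB1 by -1.91 (-2.29, -0.59 and -0.27). YSR3 is among the genes of uncertain count on chromosome XI, and its galactose counts were low, 14 and 17 at 15 min and 6 and 15 at 60 min in the wild type and the deletion. The part of that region's counting in its value was not tested.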

How the results depend on the processing

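The 63 genes at 2-fold in glucose (44 higher, 19 lower) were 39 with a prior count of 20 (29 higher, 10 lower), 262 at 1.5-fold (125 and 137), 23 at 3-fold (18 and 5) and 33 when the whole counting interval had to lie past 2-fold (25 and 8); these settings are stricter or looser by construction. Without the sterol lists, an alternative chosen after seeing the data, 27 were higher. Library totals gave 37 higher and 26 lower and moved the median of all genes by -0.0514. The other settings (a prior count of 0.5, median or RLE scaling, 3 other filters, thinning the deletion library, leaving out part of chromosome XI or overlapping genes) left the count between 44 and 70. All 45 list medians stayed within the typical half-width of their members' counting intervals under the 6 scaling, prior and thinning settings. Of 218 genes under the naming rule, 10 left their counting interval with a prior count of 20, 1 with library totals and 1 with thinning, and 0 changed direction where the interval excluded 0. In galactose 62 genes passed edgeR, 16 DESeq2, 31 limma and 20 an adjusted p of 0.01; the glucose term gave 9 genes in edgeR, 6 with RLE factors and 0 with DESeq2, limma, library totals, no filter or an adjusted p of 0.01, and the cause was not tested. Leaving out a time leaves no residual degrees of freedom, so it was not run. No paired analysis was possible because the libraries share no replicate numbers, with 1 library for each strain and condition; time itself was a term of the galactose fit. For the 1038 genes with the fewest wild-type counts the median counting interval was 0.783 log2 units wide, against 0.244 for the 1037 with the most.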

Other observations

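General stress and oxidative defence genes lay above 0 in glucose more often than all genes, and heat shock chaperone genes less often. The shares above 0 were 69.2%, 68.2% and 41.7%, against 51.6% of all genes. Counting intervals clear of 0 were split: 3 above and 4 below for stress, 7 and 4 for oxidative defence, 5 and 7 for chaperones. Of 26 measured general stress genes 1 was at least 2-fold higher, TMA10 (0.848% of all genes were), and 1 lower, TSL1 (0.366%). The list's median was 0.147, and the glycogen branching enzyme gene GLC3 was at 0.84 on 21 and 63 counts. Among 24 chaperone genes BTN2 (log2 -0.77), HSP42 (log2 -0.71) and SSA4 (log2 -0.50) were lowest, with a list median of -0.0637. SSA4 was at 0.65 and 0.50 in galactose, and HSP42 at 0.29 and 0.30. Among 22 oxidative defence genes the old yellow enzyme gene OYE3 was at -0.87 in glucose (25 and 20 counts) and rose in galactose by 1.09 ± 0.24 (edgeR Benjamini-Hochberg adjusted p = 0.0322), though not by DESeq2 or limma. The peroxiredoxin gene TSA2 was at 0.64 on 16 and 42 counts, with an interval from -0.14 to 1.65, and rose in galactose by 1.93 ± 0.15 (adjusted p = 2.49e-07, same edgeR test), which DESeq2 and limma also called.

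In carbon and sulfur metabolism, 13 of 21 glycolysis and fermentation genes had a counting interval above 0 (17.6% of all genes did). The list's median was 0.138. Among the 13 was TDH3, with 15702 and 34670 counts (0.47, interval 0.45 to 0.50). Intervals are narrower at high counts, so small differences clear 0 more easily there. The minor pyruvate decarboxylase gene PDC6 had 22 and 92 counts (1.30). The peroxisomal citrate synthase gene CIT2 was at 0.74 and the mitochondrial malate dehydrogenase gene MDH1, of uncertain count on chromosome XI, at -0.97. SAM2, an S-adenosylmethionine synthetase gene, had 335 and 1057 counts (0.98, interval 0.81 to 1.17) and MET13, a methylenetetrahydrofolate reductase gene, 167 and 467 (0.81), while 25 sulfur genes had a median of -0.0346. ARO10, a decarboxylase gene of aromatic amino acid breakdown, was at -0.95 and IMD2, of guanine nucleotide synthesis, had 606 and 585 (log2 -0.72, interval -0.89 to -0.55).

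A few 2-fold genes lie near each other. ERG1 and ATF2, both higher, are 406 bases apart, and ARG3 and SIP4, both higher, 384 bases apart. TIP1 (lower) and NRG2 (higher) are 1404 bases apart, and ERG29 (higher) and GAT2 (lower) are 2648 bases apart with GID8 between them. Among 82 measured genes within 20 kb of a chromosome end 2 were at least 2-fold higher (0.848% of all genes were) and 0 lower (0.366%). The 2 were PHO89 and DIA1, the latter sharing its span with another gene. The median of the 82 was -0.0873.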
